A study of Camellia japonica and Camellia azalea with 81 samples.

Results

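A set of 100 genes that changed between winter and summer in leaves of Camellia japonica, and whose monthly means varied less in leaves of Camellia azalea, was described across leaves of both species and flower buds of C. japonica. Both species are evergreen shrubs of the tea family. C. japonica blooms in the cold season and spring, C. azalea mostly in summer. The 100 were selected on their values among 41952 gene IDs found in both tables. Of these IDs, 14617 had a year mean of at least 5 TPM (a transcript abundance, scaled by length and to a fixed total per library) in both species. A further limit kept the 7960 IDs whose range of month means on the log2(TPM + 1) scale was under 1.5 in C. azalea. From these the 100 with the largest difference between winter (Dec to Feb) and summer (Jun to Aug) in C. japonica were taken. In that species 70 of them were higher in winter and are called winter-high, and 30 were lower in winter and are called summer-high.

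Young leaves of C. japonica gave 3 libraries in each of 12 months, as did young leaves of C. azalea, and 9 libraries came from C. japonica flower buds labelled FB-1, FB-2 and FB-3. The labels give no genotype, plant age, treatment or stage behind these bud labels, and they leave unsaid if the 3 libraries of a month are separate plants. The p-values below therefore reflect the spread between libraries, and that spread may be technical. The C. japonica library labelled Feb leaf 1 was left out by the selection rule, so 35 leaf libraries of that species were used. Replicate numbers of C. japonica are used here only to name a library.

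Leaves of evergreen plants live through the cold season and adjust their metabolism to it. Day length, temperature and the internal clock are known to set much of the yearly course of transcripts in leaves. Cold hardening, lowered photosynthesis in frost and growth in the warm months are textbook parts of that course, and flower buds of winter-flowering trees develop through the same seasons. The files pair the IDs of the 100 genes with no gene names, so no role is given to any of them, and the tissue labels could not be checked against marker genes. In bulk leaves, fewer cells of a type and less RNA per cell cannot be told apart.

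Some libraries stood apart from their labels. Across genes, the closest library by correlation carried the same month for 6 of 36 C. japonica leaf libraries, against 30 of 36 in C. azalea and 5 of 9 among the buds. Feb leaf 1 correlated best with the bud library FB-1 2 (r = 0.904) and averaged r = 0.663 with the leaves of its own month. The bud library FB-1 1 correlated best with Dec leaf 2 (r = 0.975) and averaged r = 0.645 with its own bud label, so it was left out of the bud comparisons and its effect is given beside them. Jan leaf 3 correlated best with Aug leaf 2 (r = 0.941). It stayed in, and several results that rest on it are also given without it. The sequencing depth of the libraries is unknown.

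The winter and summer values of C. japonica chose the genes, so they are given as a description. The winter-high genes had a median difference of 1.33 between winter and summer on the log2(TPM + 1) scale, with differences between 1.20 and 2.12. The summer-high genes had a median of −1.498, with differences between −3.99 and −1.22. At the edge of the list the last 2 genes had differences of 1.21 and 1.20 in size, and the next 2 IDs outside it had 1.199 each. Year means of the 100 genes lay between 5.55 and 324 TPM in C. japonica leaves, with a median of 20.9 TPM. In C. azalea they lay between 5.12 and 806 TPM, with a median of 17.8 TPM. The 2 tables were normalized separately, so levels are not compared between the species.

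The C. azalea limit removed most candidates. An absolute difference at least as large as that of the last gene was found in 1181 IDs at the required level, and 100 of them (8.47%) had a C. azalea range under 1.5. The highest range among the 100 was 1.498, and the nearest ID left out had 1.503. Their median C. azalea range was 1.29, against 1.16 for the 7960 IDs under the limit and 1.44 for all IDs at the required level. A range of at least 1 was found in 95 of the 100 genes, and of at least 1.4 in 25. The word flat thus describes a limit on the range, and the month means of most of the 100 genes still varied in C. azalea by 1 or more on the log2 scale.

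Most of the genes had the same sign in both species. The rule favoured smaller differences in C. azalea, as it limited the range there and took the largest differences in C. japonica. That they were smaller is therefore not read as a result. The winter-high genes had a median winter minus summer difference of 0.58 in C. azalea, between −0.51 and 1.04, and 63 of 70 had the same sign as in C. japonica. The summer-high genes had a median of −0.30, between −1.02 and 0.80, and 23 of 30 had the same sign. Among the 7960 IDs 75.9% were positive in C. azalea. The C. azalea difference reached at least 0.5 of the C. japonica one in 25 winter-high and 5 summer-high genes. All genes tested had a median of 0.20 in C. japonica and 0.26 in C. azalea, so both tables as a whole leaned towards winter. Both medians lay near 0 after median-of-ratios scaling, at −0.02 and 0.02. On that scaling the winter-high median was 1.06 for C. japonica against 0.29 for C. azalea, and the summer-high median −1.78 against −0.60. Across the 12 month means the profile of a gene in C. japonica correlated with its own profile in C. azalea with a median r of 0.44 for winter-high genes (60 of 70 above 0) and 0.23 for summer-high genes (24 of 30 above 0). The median over the 7960 IDs was 0.30, with 6642 above 0. These r values describe 12 month means that share their libraries.

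**Figure D1:**
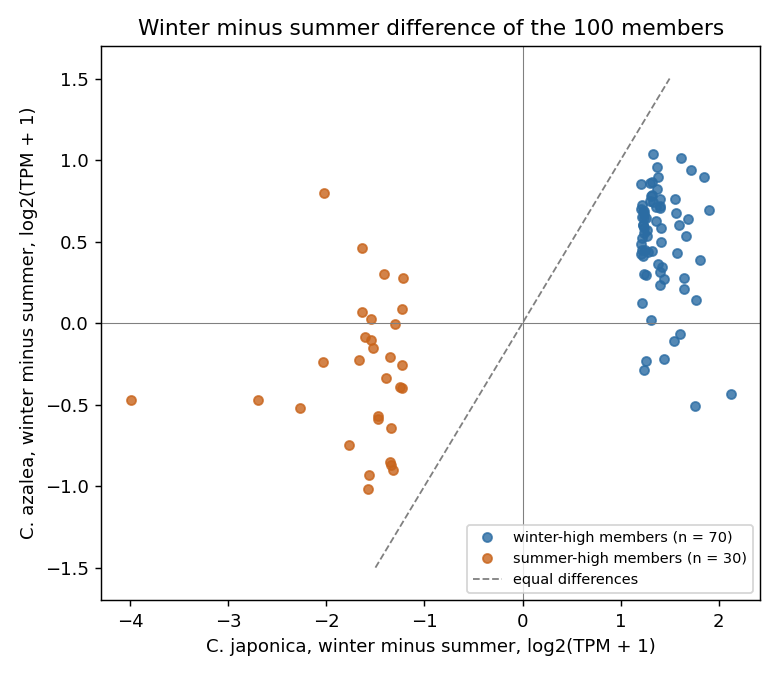
Winter minus summer difference in C. japonica leaves (x axis) and in C. azalea leaves (y axis), both on the log2(TPM + 1) scale, with 1 point per gene for the 70 winter-high and 30 summer-high genes. The dashed line marks equal differences. All points lie on the side of the smaller C. azalea difference, which the rule favoured. The sign is the same in both species for 63 winter-high and 23 summer-high points.

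The list was also counted with limma, a linear model test run across all genes, in which a gene was called where its Benjamini-Hochberg adjusted p was below 0.05 and its log2 difference at least 1 in size. For winter minus summer in C. japonica 67 winter-high genes were called higher, where 6.56% of all genes tested were, and 29 summer-high genes were called lower, where 3.68% were. This contrast chose the genes, and nothing is read from these counts, which were 43 and 29 after median-of-ratios scaling. In C. azalea 2 winter-high genes were called higher (6.25% of all genes) and 1 summer-high gene was called lower (3.15% of all genes), in a contrast that the range limit had already bounded. After median-of-ratios scaling 0 were called higher and 6 lower in C. azalea, with no share over all genes given for that scaling.

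Through the year the winter-high genes of C. japonica had their highest monthly median in Feb and their lowest in summer. Their median deviation from the year mean was 0.38 in Jan, 0.88 in Feb, 0.34 in Mar, 0.24 in Apr, −0.01 in May, −0.67 in Jun, −0.73 in Jul, −0.74 in Aug, −0.31 in Sep, −0.14 in Oct, 0.09 in Nov and 0.66 in Dec, all as log2 differences. The highest month mean fell in Feb for 39 of them, in Dec for 21 and in Jan for 5. The summer-high genes had their lowest monthly median, −1.48, in Feb and their highest, 0.75, in Aug. Feb was the lowest month for 28 of 30 and Dec for the other two. Feb of C. japonica rests on 2 libraries, with winter-high medians of 0.91 and 0.86 and summer-high medians of −1.41 and −1.45. Jan leaf 1, Dec leaf 2 and Dec leaf 3 lay close, with 0.85, 0.91 and 0.79 and with −1.28, −1.23 and −1.16. Jan leaf 2, Jan leaf 3 and Dec leaf 1 had 0.40, −0.12 and 0.41 and −0.24, 0.56 and −0.03. The order of months was not worked out without Jan leaf 3, and Feb was not tested against Jan or Dec. Winter and summer values chose the genes, so the levels of both lists in these seasons are not read as a result. Over the 7960 IDs the C. japonica monthly median was also low in summer, between −0.23 in Jul and −0.18 in Aug.

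In C. azalea the extreme months were spread more widely. The rule ranked genes on winter and summer in C. japonica and limited the C. azalea range. This contrast between the species is therefore not read as a result. The winter-high genes had their highest month mean in Jan for 27 and in Nov for 15 of 70, and their lowest in Aug for 23 and in Jun for 15. The summer-high genes were lowest in Dec in 15 of 30 cases, and 15 of 30 had their highest month mean in summer. Their median deviation in C. azalea stayed between −0.45 in Dec and 0.28 in Jul. Over the 7960 IDs the C. azalea monthly median was likewise highest in Jan (0.38) and Nov (0.32). It was lowest in Aug and Dec (−0.25 each), so these months are not particular to the lists.

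**Figure D2:**
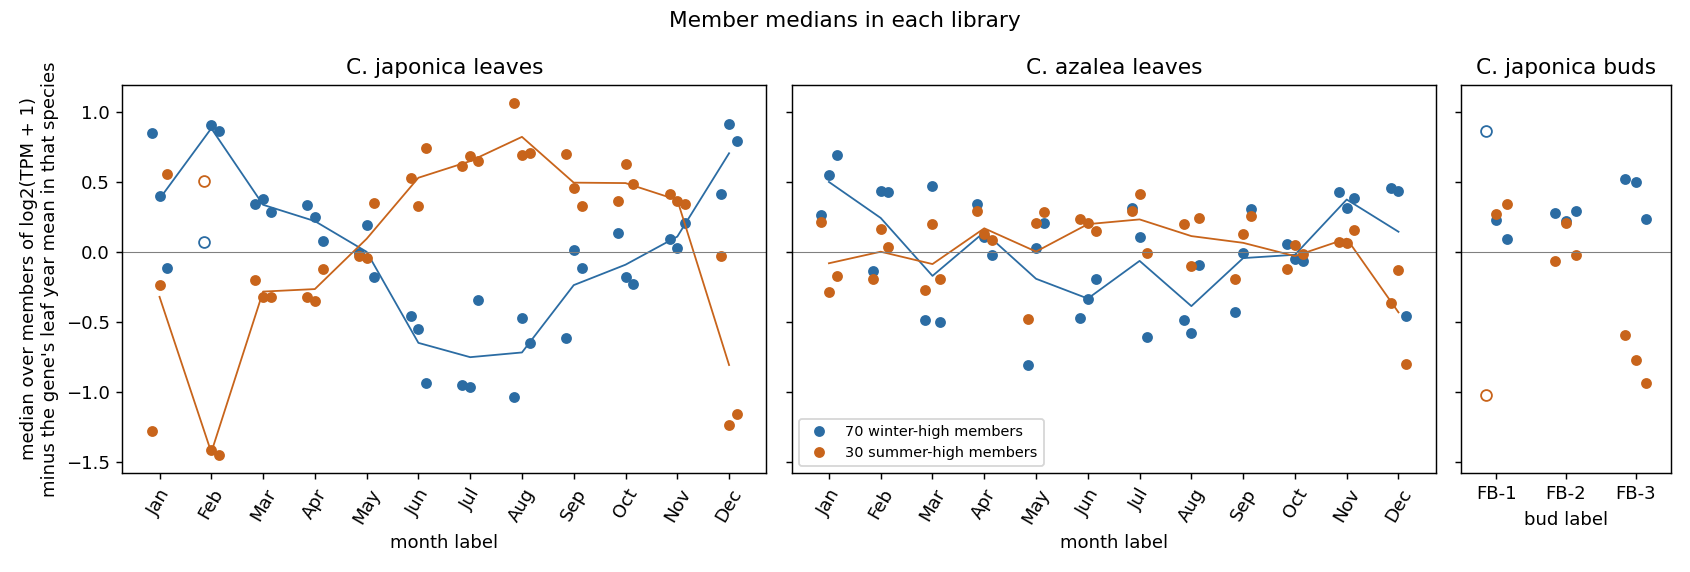
Median over the 70 winter-high genes (blue) and the 30 summer-high genes (orange) of log2(TPM + 1) minus the leaf year mean of each gene in that species (y axis) by month or bud label (x axis), with 1 point per library, lines through the month means and open circles for the libraries labelled Feb leaf 1 and FB-1 1. The lists part in winter and summer in C. japonica and stay closer in C. azalea, both of which the rule favoured. They part again at FB-3, where the summer-high medians lie between −0.94 and −0.59.

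The separation of the lists in single libraries was measured as the winter-high median minus the summer-high median. In C. japonica the winter libraries ran from −0.67 to 2.32 with a median of 2.04 (n = 8), and the summer libraries from −2.10 to −0.88 with a median of −1.35 (n = 9). The value of −0.67 belongs to Jan leaf 3, which lay on the summer side of the midpoint for 61 of the 100 genes. Jan leaf 2 and Dec leaf 1 had 0.64 and 0.44 and lay on the winter side for 77 and 71 genes, while each of the other 5 winter libraries did so for at least 99. In C. azalea the winter libraries ran from 0.05 to 0.86 with a median of 0.39, and the summer libraries from −0.70 to 0.02 with a median of −0.48 (n = 9 each). All C. azalea winter libraries thus lay above all summer ones on this measure, with a distance between the medians that was smaller than in C. japonica. The rule favoured that smaller distance, so it is not read as a result. The C. japonica winter and summer values chose the genes, so the separation and the sides there are only a description.

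Counted gene by gene in C. japonica, all 8 winter libraries lay above all 9 summer libraries for 12 of 70 winter-high genes, where 1.85% of all genes tested did. They lay below them for 1 of 30 summer-high genes, where 0.261% did. Without Jan leaf 3 these counts were 28 of 70 (6.09% of all genes) and 8 of 30 (0.873% of all genes). The same contrast chose the genes, so these counts only describe how far single libraries overlapped.

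Among the winter-high genes the largest difference was that of EVM0010341. It had 10.97 TPM in the lowest, 18.1 TPM as the median and 27.6 TPM in the highest of 8 winter libraries, against 1.26, 3.55 and 7.32 TPM in 9 summer libraries. The groups did not overlap. In C. azalea the sign was opposite and the groups overlapped, with 8.92, 13.7 and 23.3 TPM in winter and 14.2, 19.1 and 21.7 TPM in summer. EVM0030267 followed, with 2.83, 22.4 and 35.3 TPM in C. japonica winter libraries and 1.86, 4.797 and 7.75 TPM in summer libraries. The 2.83 TPM came from Jan leaf 3, and the other 7 winter libraries lay above all summer libraries. In C. azalea EVM0030267 had 3.98, 9.50 and 14.2 TPM in winter and 2.87, 4.37 and 9.69 TPM in summer, with overlap.

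The summer-high gene EVM0010182 had the largest difference of all. Its lowest, median and highest TPM were 9.07, 34.2 and 489 in C. japonica winter libraries and 139, 745 and 1413 in summer libraries. The 489 TPM came from Jan leaf 3, and the winter mean of 87.4 TPM was 30.03 TPM without it. EVM0010182 also varied in C. azalea, with 342, 836 and 1144 TPM in winter and 604, 1181 and 1525 TPM in summer, and those groups overlapped. EVM0005043 was listed at 0 TPM in 2 of 8 winter libraries and reached 3.601 TPM in the highest, against 4.81, 11.5 and 24.3 TPM in summer libraries. In C. azalea EVM0005043 had 18.01, 24.7 and 38.5 TPM in winter and 19.7, 35.9 and 69.9 TPM in summer.

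**Figure D3:**
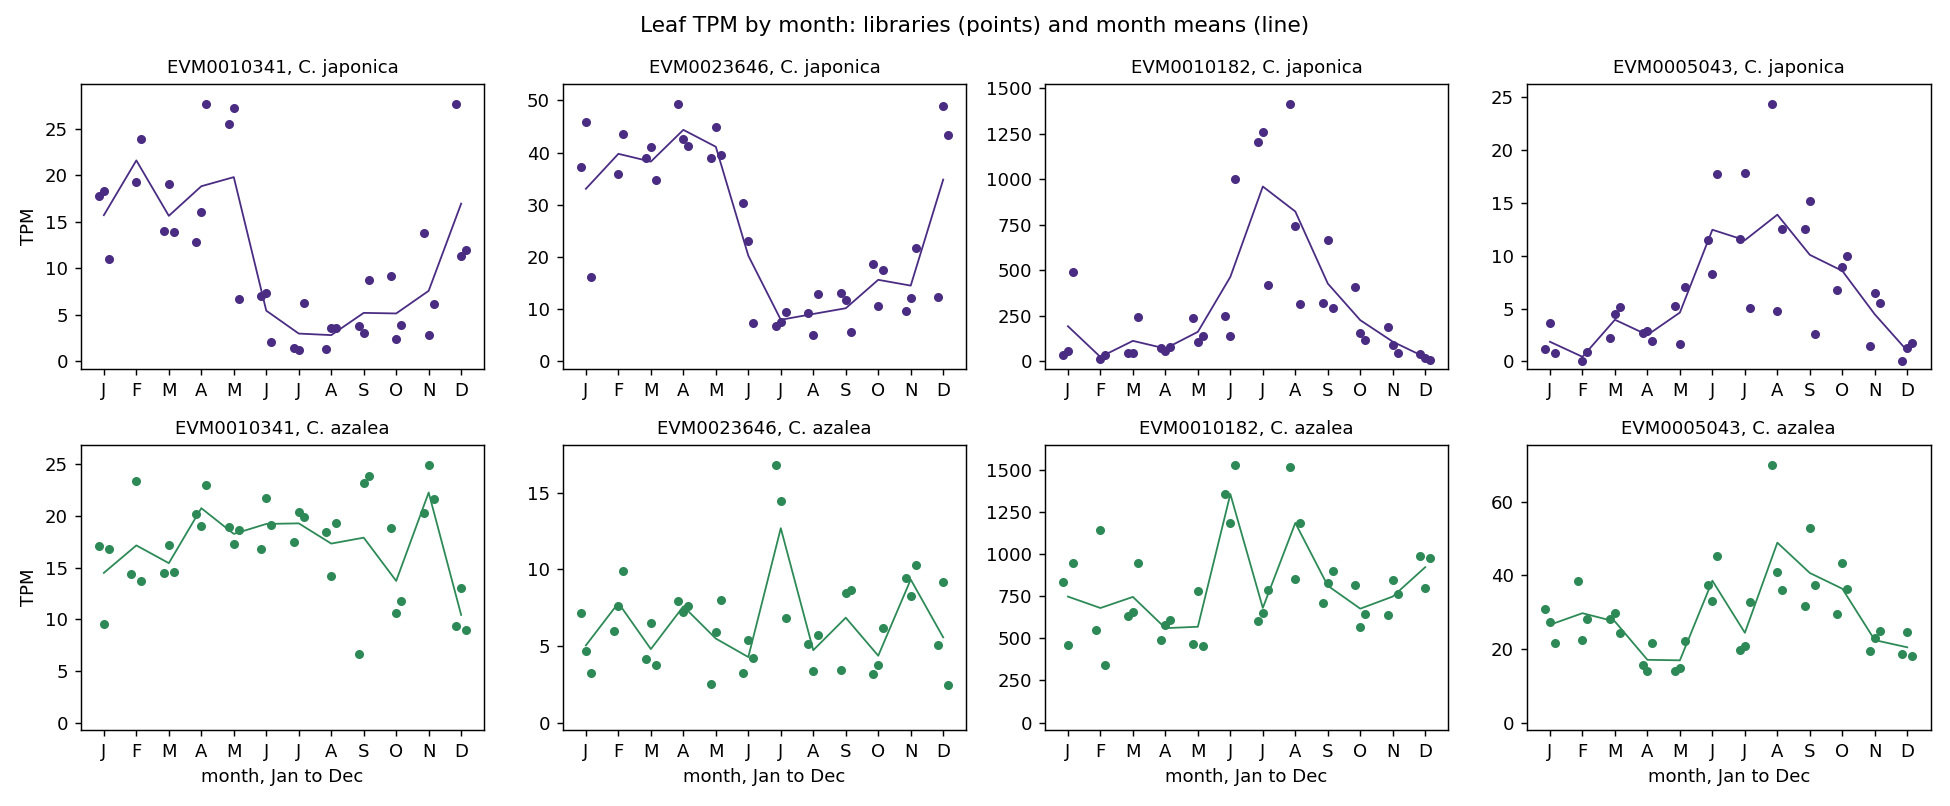
TPM (y axis) by month from Jan to Dec (x axis) in C. japonica leaves (upper panels) and C. azalea leaves (lower panels) for 2 winter-high genes, EVM0010341 and EVM0023646, and 2 summer-high genes, EVM0010182 and EVM0005043, with points for libraries and lines for month means. The scales differ between panels; in C. japonica EVM0023646 stays between 34.8 and 49.2 TPM through spring and has 13.4 TPM as its autumn mean.

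Spring (Mar to May) and autumn (Sep to Nov) of C. japonica took no part in the seasonal contrast of the rule, and their difference was tested. As a description only, since the winter and summer levels that scale it chose the genes, the winter-high genes stood at a median of 64.4% of the way from summer to winter levels in spring and at 42.4% in autumn, and the summer-high genes at 55.6% and 17.7%. Spring minus autumn had a median of 0.26 over winter-high genes (53 of 70 positive) and of −0.72 over summer-high genes (25 of 30 negative), beside −0.01 over all genes tested and 47.3% positive among the 7960 IDs.

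Of the winter-high genes 4 of 70 (5.71%) were called higher in spring than in autumn, and 2 (2.86%) were called lower, by −1.58 and −1.09. Over all genes the shares were 5.0% higher and 2.69% lower, near the winter-high shares. Among the 7960 IDs that met the level and C. azalea limits the shares were 0.842% and 0.892%. Both lay below the winter-high shares, which rest on 4 and 2 genes. Of the summer-high genes 8 of 30 (26.7%) were called lower in spring, and 0 were called higher. With month means as the unit in place of libraries, 8 of the 100 genes were called, against 14. Without Jan leaf 3 there were 4 higher and 11 lower calls among the 100 genes. The shares over all genes in that fit are not given. With 1 library left out, calls over all genes ran from 1700 to 2830, against 2208 with all 35 libraries.

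EVM0023646, a winter-high gene, had 34.8, 41.1 and 49.2 TPM as the lowest, median and highest of 9 spring libraries, against 5.57, 12.2 and 21.7 TPM in 9 autumn libraries, with no overlap. The means were 41.2 ± 4.10 and 13.4 ± 5.01 TPM (SD, n = 9 each). Its spring minus autumn difference was 1.63 ± 0.27 (log2 ± SE; adjusted p = 0.00021 by limma). EVM0010341 had 6.66, 16.04 and 27.6 TPM in spring and 2.41, 3.88 and 13.8 TPM in autumn, and 7 of 9 spring libraries lay above all autumn ones. Its difference was 1.52 ± 0.33 (log2 ± SE; adjusted p = 0.0021 by limma).

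EVM0003444, a summer-high gene, was listed at 0 TPM in 7 of 9 spring libraries and in 1 of 9 autumn libraries. The other two spring libraries had 6.27 TPM (Apr leaf 2) and 5.83 TPM (May leaf 1), and the remaining autumn libraries ran from 7.097 to 21.4 TPM. It was called lower in spring (limma adjusted p = 0.01), and no fold is given because of the zeros. With month means as the unit the call was lost (limma adjusted p = 0.057), and the other 41 of 42 alternatives kept it. For winter minus summer in C. japonica EVM0003444 was not called. It was listed there at 0 TPM in 5 of 8 winter and 3 of 9 summer libraries. In C. azalea no library listed EVM0003444 at 0 TPM, and the lowest value was 20.9 TPM. Levels are not compared between the species, and the source of the zeros in C. japonica was not tested. EVM0041276 had 3.41, 4.50 and 24.9 TPM in spring, against 6.88, 12.9 and 61.7 TPM in autumn. Its log2 difference was −1.61 ± 0.49 (SE; limma adjusted p = 0.025), and 6 of 9 spring libraries lay below all autumn ones. This call was lost when May leaf 1, May leaf 2, Sep leaf 2, Oct leaf 2 or Nov leaf 2 was left out, with differences between −1.49 and −1.32.

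Within spring, May was set against Mar. The winter-high genes had a median difference of −0.24, the same as the median over all genes tested, with 52 of 70 negative. With median-of-ratios scaling the winter-high median was −0.01 and that of all genes −0.06. The summer-high genes had a median of 0.33 with 24 of 30 positive, beside 31.7% positive among the 7960 IDs. Only 2 winter-high genes were called lower and none higher, where 1.16% of all genes were called lower and 0.358% higher, and no summer-high gene was called. EVM0005948 had 10.6, 9.58 and 6.67 TPM in the May libraries and 42.9, 42.1 and 34.5 TPM in the Mar libraries (log2 difference −2.05 ± 0.52, SE; limma adjusted p = 0.038). EVM0025652 had 17.2, 13.7 and 17.9 TPM in May and 42.6, 42.6 and 36.7 TPM in Mar (log2 difference −1.27 ± 0.32, SE; limma adjusted p = 0.041). In both genes all May libraries lay below all Mar ones. The calls were lost in 10 (EVM0005948) and 12 (EVM0025652) of 41 alternatives, among them both other scalings, a pseudocount of 0.1, adding Feb leaf 1 and leaving out any 1 Mar or May library. The differences stayed between −2.17 and −1.83 for EVM0005948 and between −1.34 and −1.05 for EVM0025652.

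Within autumn, Nov was set against Sep. The winter-high genes had a median of 0.25 with 49 of 70 positive, and the summer-high genes −0.07 with 20 of 30 negative, beside 0.16 over all genes tested and 69.7% positive among the 7960 IDs, so the winter-high sign count was near the background. After median-of-ratios scaling these were 0.05, −0.27 and 0.0032. None of the 100 genes was called by limma, where 0.00348% of all genes were called higher and 0.0% lower. At an unadjusted p under 0.05 there were 13 of the 100 genes and 1952 of 28740 genes in all.

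**Figure D4:**
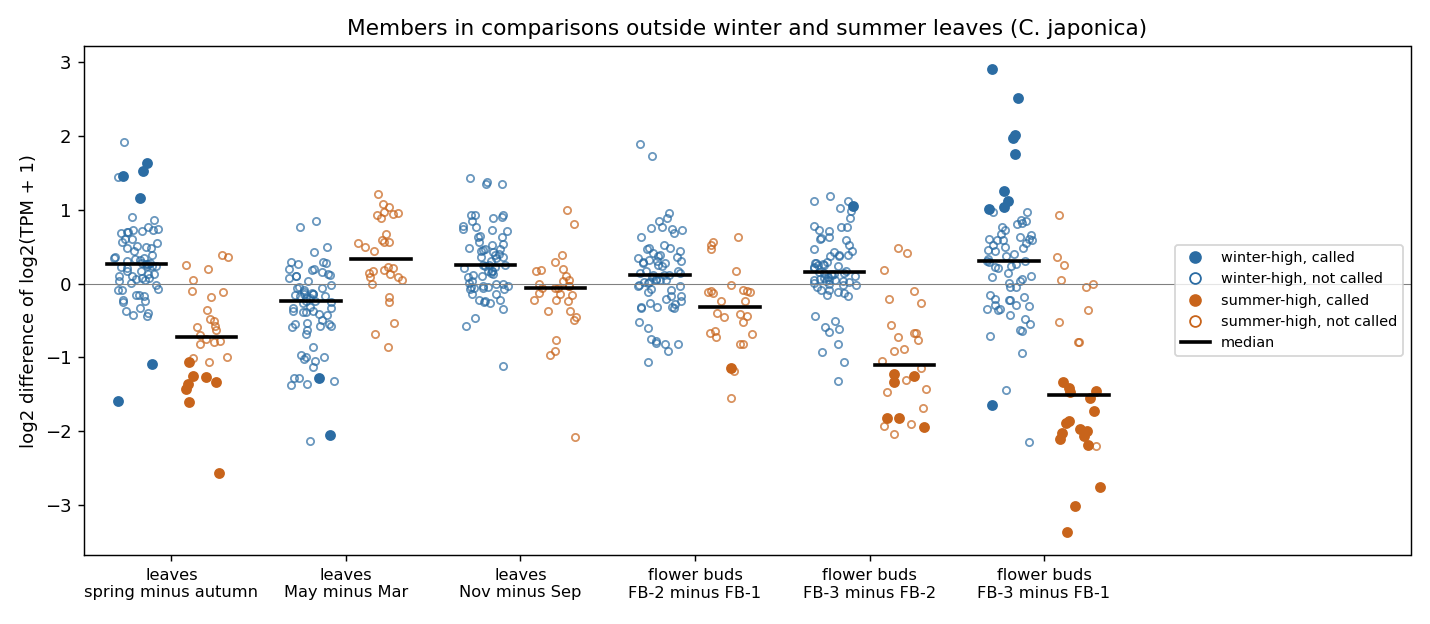
Log2(TPM + 1) differences (y axis) of the winter-high (blue) and summer-high (orange) genes in 3 comparisons of C. japonica leaves and 3 of its flower buds (x axis), with filled points for called genes, open points for the others and bars for medians. The summer-high medians lie below the winter-high ones in each comparison except May minus Mar, and are lowest in FB-3 minus FB-1, at −1.51.

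The flower buds of C. japonica were not used by the rule. The summer-high genes were lower in FB-3 than in FB-1, as a list and in most single genes. FB-3 minus FB-1 had a median of −1.51 over the 28 summer-high genes that passed the low-value filter (24 negative), and 17 of 28 (60.7%) were called lower and 0 higher. The winter-high genes had a median of 0.31 with 47 of 70 positive; 9 (12.9%) were called higher and 1 (1.43%) lower. The median over all genes tested was −0.22; median-of-ratios scaling put it at 0.03, with list medians of −1.23 (summer-high) and 0.57 (winter-high). Among the 7937 tested IDs that met the level and C. azalea limits 35.4% were positive. Over all genes 4.79% were called higher and 9.98% lower, and among the IDs that met the level and C. azalea limits the shares were 1.83% and 7.37%. The 2 genes not tested were EVM0003444 and EVM0041276, which the 8 bud libraries list at 0 TPM apart from 1.22 TPM of EVM0003444 in FB-2 3.

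These counts rest on 2 libraries of FB-1 and 3 of FB-3. With the library labelled FB-1 1 put back, 4 of the 100 genes were called and 594 genes in all, against 27 of the 100 and 4306 genes without it. FB-1 1 had a list separation of 1.89, against −0.25 and −0.05 in the other two FB-1 libraries. Without FB-1 2, 11 of the 100 genes were called, 5 of them summer-high genes that were lower. After median-of-ratios scaling 17 of the 100 genes were called higher and 18 lower. The shares over all genes are not given for the fit without FB-1 2 or after that scaling. The counts of these fits are therefore not set against a background.

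EVM0029876, a summer-high gene, had 4.73, 5.79 and 4.96 TPM in the FB-3 libraries, against 67.0 and 57.7 TPM in the FB-1 libraries. Its FB-2 libraries had 27.1, 24.3 and 13.4 TPM, between both. The log2 difference of FB-3 minus FB-1 was −3.36 ± 0.30 (SE; limma adjusted p = 0.0014). EVM0036580 had 2.44, 2.49 and 2.25 TPM in FB-3 and 25.2 and 27.2 TPM in FB-1, with 9.63, 7.78 and 17.3 TPM in FB-2 (log2 difference −3.003 ± 0.34, SE; limma adjusted p = 0.0029). Neither gene overlapped between FB-3 and FB-1. In FB-1 1, which is not in these values, EVM0036580 had 0.543 TPM and EVM0029876 had 29.3 TPM.

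Of the winter-high genes EVM0005948 rose most, with 32.1, 40.9 and 73.3 TPM in FB-3 and 6.92 and 3.99 TPM in FB-1 (log2 difference 2.90 ± 0.43, SE; limma adjusted p = 0.0072). EVM0004952 had 36.8, 54.5 and 24.3 TPM in FB-3 and 4.18 and 7.52 TPM in FB-1 (log2 difference 2.502 ± 0.43, SE; limma adjusted p = 0.011). All FB-3 libraries lay above both FB-1 libraries in each gene. FB-1 1 had 24.5 TPM of EVM0005948 and 153 TPM of EVM0004952. With FB-1 1 put back the calls of EVM0036580, EVM0005948 and EVM0004952 were lost, and that of EVM0004952 also without FB-1 2.

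**Figure D5:**
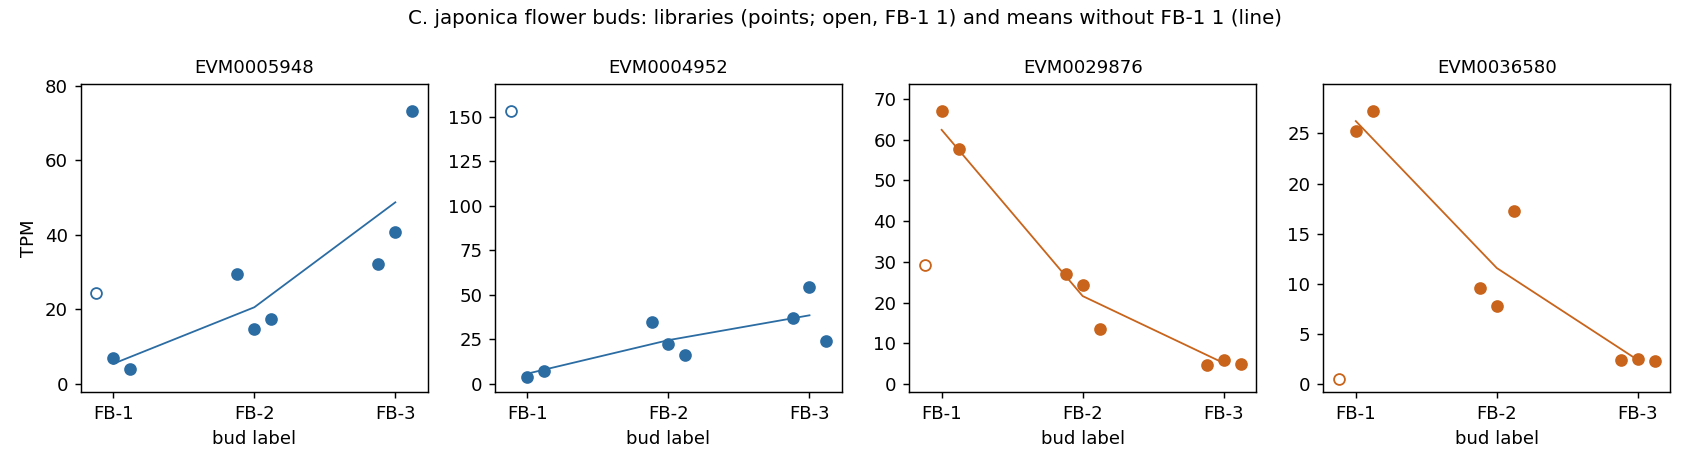
TPM (y axis) in flower bud libraries labelled FB-1, FB-2 and FB-3 (x axis) for the winter-high genes EVM0005948 and EVM0004952 and the summer-high genes EVM0029876 and EVM0036580, with points for libraries, an open point for FB-1 1 and lines for the means without it. FB-3 lies above both other FB-1 libraries in the 2 winter-high genes and below them in the 2 summer-high genes.

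FB-3 against FB-2 gave the same order of lists with fewer calls. The medians were −1.10 over summer-high genes (25 of 28 negative) and 0.15 over winter-high genes (51 of 70 positive), beside 42.8% positive among the 7937 tested IDs that met both limits. Of the summer-high genes 6 were called lower, where 0.971% of all genes were, and 1 winter-high gene was called higher, where 0.333% were. No gene at all was called when FB-1 1 was added to the fit, which leaves these medians as they are and changes only the estimated spread. EVM0009946 had 23.2, 25.99 and 11.3 TPM in FB-3 and 85.8, 67.4 and 75.6 TPM in FB-2 (log2 difference −1.94 ± 0.29, SE; limma adjusted p = 0.035). EVM0029876, with the values above, differed by −1.82 ± 0.27 (log2 ± SE; adjusted p = 0.035 by limma). EVM0028596, a winter-high gene, had 47.8, 57.01 and 48.6 TPM in FB-3 and 24.5, 24.5 and 23.2 TPM in FB-2 (log2 difference 1.05 ± 0.16, SE; limma adjusted p = 0.035). None of these 3 genes overlapped between FB-3 and FB-2. The calls of EVM0009946, EVM0029876 and EVM0028596 were lost in 7, 8 and 8 of 14 alternatives, most of which leave out 1 bud library, with differences that kept their sign.

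FB-2 minus FB-1 had medians of −0.32 over summer-high genes (23 of 28 negative) and 0.11 over winter-high genes (44 of 70 positive), and with FB-1 1 put back they turned to 0.15 and −0.12. Among the 7937 tested IDs that met both limits 33.5% were positive. A single gene was called, lower, where 0.765% of all genes were called lower and 0.947% higher. This was EVM0033517, with 23.7, 21.9 and 20.3 TPM in FB-2 and 56.5 and 43.3 TPM in FB-1 (log2 difference −1.14 ± 0.19, SE; limma adjusted p = 0.032). With FB-1 1, which had 2.11 TPM, its difference turned to 0.20 and was not called. The call was lost in 8 of 14 alternatives, among them leaving out any 1 FB-1 or FB-2 library. In the buds the 3 comparisons share libraries, so their values stand side by side and are not independent.

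Flower bud minus leaf had a median of 0.33 over winter-high genes (45 of 70 positive) and −0.21 over summer-high genes (17 of 30 negative), beside 0.48 over all genes tested and 64.6% positive among the 7960 IDs; the winter-high median turned to −0.058 after quantile normalization. Of the winter-high genes 12 (17.1%) were called higher and 10 (14.3%) lower, and of the summer-high genes 6 higher and 8 (26.7%) lower. Together these 18 higher and 18 lower calls became 11 and 23 after median-of-ratios scaling and 10 and 25 after quantile normalization. With TPM as deposited 29.2% of all genes were called higher and 11.2% lower. Among the IDs that met the level and C. azalea limits the shares were 10.5% and 12.9%. Shares after the other scalings are not given, so the rescaled counts have no background here.

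Single genes of both lists separated the tissues. EVM0002339, a summer-high gene, had 24.2, 70.9 and 122 TPM as the lowest, median and highest of 8 bud libraries, against 3.72, 12.04 and 23.5 TPM in 35 leaf libraries (log2 difference 2.44 ± 0.18, SE; limma adjusted p = 1.1e-13). EVM0003127, a winter-high gene, had 19.3, 37.4 and 44.9 TPM in buds and 1.43, 5.77 and 26.7 TPM in leaves (log2 difference 2.21 ± 0.24, SE; limma adjusted p = 1.3e-09). EVM0009069, also winter-high, had 0.971, 1.78 and 4.28 TPM in buds and 5.79, 33.4 and 68.1 TPM in leaves (log2 difference −3.31 ± 0.22, SE; limma adjusted p = 4.2e-15). EVM0041276 was listed at 0 TPM in all 8 bud libraries and ran from 2.75 to 82.8 TPM in the leaves, so no fold is given. Buds and leaves did not overlap in EVM0002339, EVM0009069 and EVM0041276.

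The 2 libraries left out of these values went against their tissue labels in the same genes. FB-1 1 had 4.44 TPM of EVM0002339, 30.98 TPM of EVM0009069 and 4.49 TPM of EVM0041276, each within the range of the leaves and outside that of the buds. Feb leaf 1 had 146 TPM of EVM0002339, 3.30 TPM of EVM0009069 and 0.207 TPM of EVM0041276, each outside the range of the 35 leaf libraries. Whether the labels of these libraries are exchanged was not tested.

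The 100 genes had a larger spread between libraries of a month in C. japonica than the 7960 IDs they were taken from. Their median within-month SD of log2(TPM + 1) was 0.51 in C. japonica, against 0.33 for those IDs, and 0.42 in C. azalea, against 0.41. The C. japonica SD includes Jan leaf 3 and the other winter and summer libraries that chose the genes. It is thus not independent of the choice, and was not worked out without those libraries. Deviations from the month means had a median r over pairs of genes in C. japonica of 0.27 among winter-high genes, 0.30 among summer-high genes and −0.26 between the lists (35 libraries), beside 0.07 over all pairs of the 7960 IDs. The lists were chosen to differ between winter and summer in these libraries, so these values are not independent of the choice. Without Jan leaf 3 the values were 0.24, 0.20 and −0.20. In the 18 spring and autumn libraries, which the contrast did not use, they were 0.17, 0.06 and −0.10, beside 0.04 over all pairs. In C. azalea they were 0.53, 0.30 and 0.36 over 36 libraries, none above the 0.55 over all pairs. These r values describe genes that share libraries and carry no test.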

How the data were processed

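RNA sequencing covered young leaves of C. japonica and C. azalea and flower buds of C. japonica. The authors deposited TPM in 1 table per species, and each column summed to 1000000. Per the submitters' processing notes HISAT2 2.1.0 and StringTie 1.3.6 were used, with build, annotation and settings not given in the sources used here. TPM keep no depth, so no counting interval is given, and they are shares of a fixed total.

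The genes were found by the rule in the opening, in Python 3.11.15 with pandas 2.3.3. Both the genes and the tests were chosen with earlier results of these data known. The tests, two-sided, used limma 3.58.1 (mean-variance trend) in R 4.3.3 on log2(TPM + 1). Genes needed 1 TPM or more in 3 or more libraries of the fit, and p-values were adjusted by Benjamini-Hochberg over every gene tested. Differences on this scale understate changes of low genes. Leaf comparisons of a species came from 1 fit of its leaf libraries, with seasons as means of month means. Bud comparisons used 8 bud libraries, and bud minus leaf came from 1 fit of 43 libraries. The procedure was tested on simulated data with normal residuals, without deviating libraries or correlated genes. A log2 change of 1.5 was recovered in 38% of changed genes for FB-2 minus FB-1 and for FB-3 minus FB-1. The share was 49% for FB-3 minus FB-2, 61% for Nov minus Sep and 64% for May minus Mar. In the other comparisons it lay between 93% and 97%. Few calls in the bud and single-month comparisons thus leave changes of that size undetected. The text names, for winter minus summer, the 2 genes with the highest and the 2 with the lowest differences, and elsewhere the 2 called genes with the largest positive and the 2 with the largest negative differences, given 5 TPM or more as the mean of the higher group. Alternatives were other scalings, pseudocounts and filters, month means, a replicate block in C. azalea, other limits of the rule, and leaving out or adding libraries. The pair correlations without Jan leaf 3 and in spring and autumn libraries were added after seeing the data.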

Additional observations from a re-analysis of the deposited data

Results flagged for a closer look

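Among 24 groups of 8 or 9 C. japonica leaf libraries, 4 held a library set far from the others on the log2(TPM + 1) scale, measured as the gap to its nearest neighbour over the range of the group. The limit is one that chance passes in about 1 of 20 groups, and 2 of the 4 fall on Jan leaf 3. EVM0030267 in winter had a gap over range of 0.666 at Jan leaf 3 (2.83 TPM). EVM0010182 in winter had 0.550 at the same library (489 TPM). EVM0003444 in autumn had 0.673 at Sep leaf 2, which was listed at 0 TPM. EVM0041276 in spring had 0.605 at May leaf 3 (24.9 TPM).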

How the results depend on the processing

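The list itself depends on the processing. Of the 100 genes, 35 were chosen again after median-of-ratios scaling and 40 after quantile normalization, and these lists held 33 winter-high with 67 summer-high genes and 37 with 63. With a C. azalea range under 1 or under 2, 5 and 34 were chosen again, and with a year mean of at least 10 or 1 TPM, 65 and 56. Leaving out 1 library kept between 78 and 100; no gene changed sign in C. japonica in any of these. Counts of the 100 genes called, with all genes in brackets where they moved too, changed as follows, and the cause was not tested. Spring minus autumn had 8 (1028) with month means and between 10 and 18 with a library left out. May minus Mar had 0 (244) with a pseudocount of 0.1, 0 after median-of-ratios scaling, 1 after quantile normalization, 0 (108) with Feb leaf 1, and 0 to 4 (23 to 799) with a library left out. Nov minus Sep had no gene called in all (0) with a pseudocount of 0.1 and 0 to 1 (0 to 7) with a library left out. FB-2 minus FB-1 had 0 after median-of-ratios scaling, 2 after quantile normalization, 0 (183) with FB-1 1, and 0 to 1 (107 to 765) with a library left out; with FB-1 1 its medians turned to −0.12 (winter-high) and 0.15 (summer-high), and EVM0033517 to 0.20. FB-3 minus FB-1 had 4 (594) with FB-1 1 and 11 to 28 (823 to 5253) with a library left out. FB-3 minus FB-2 had 236 genes in all without a filter, 650 after median-of-ratios scaling, 0 (0) with FB-1 1, and 0 to 10 (0 to 934) with a library left out. The winter-high median of flower bud minus leaf turned to −0.058 after quantile normalization. C. azalea winter minus summer had 5 (4466) with a pseudocount of 0.1, 6 after median-of-ratios scaling, 0 (161) with month means, and 0 to 7 with a library left out. C. azalea spring minus autumn, with none of the 100 called and 2212 genes in all by limma, had 3786 in all with a pseudocount of 0.1, 12 with month means, and 0 to 2 of the 100 with a library left out; its summer-high median turned to 0.0071 after median-of-ratios scaling, 0.033 after quantile normalization, 0.026 without May leaf 1 and 0.01 without Sep leaf 3. In C. japonica winter minus summer, all genes split into 1885 higher and 1057 lower as deposited, 1002 and 1629 after median-of-ratios scaling, and 1118 and 1422 after quantile normalization.

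No label says that replicate numbers pair libraries in C. japonica, and pairing was not checked there. In C. azalea, libraries with the same number in different months deviated with a mean r of −0.02; with the replicate block, winter minus summer had 1715 higher and 864 lower genes and 3 of the 100. Depth, plant identity and gene names limit every statement above.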
